A study of Mus musculus with 4 samples.

Results

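Corin, Lepr, Vcan, Alpl and Prom1 are 5 genes used as markers of the dermal papilla, taken here as every probe set that the platform annotation gives 1 of these symbols. They are 5 of 12393 genes named on the array, with 9 probe sets among 22626 that were not controls: 3 each for Lepr and Vcan, and 1 each for Corin, Alpl and Prom1. Of the 9, 5 were bright enough to be tested, 1 per gene, and the other 4 are given by their values.

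The samples were hair follicles cut by laser capture from frozen dorsal skin of mice at postnatal day 14, in a study of alopecia in the hairless Hos:HR-1 strain. The heterozygous group (+/HrHos, 2 samples, replicates 3 and 4) was the control, and the homozygous group (HrHos/HrHos, 2 samples, replicates 2 and 3) carried the recessive mutation of Hr, a nuclear corepressor gene, on both chromosomes. All were untreated N1 mice from a cross of a Hos:HR-1 male with a heterozygous F1 female of HR-1 and ICR parents, so the controls carried the mutant allele too and shared a mixed background. Each sample pooled 50 to 70 follicles, and RNA was amplified and hybridised to 1-colour Affymetrix arrays. How much of each follicle, and whether the papilla, was cut out is not labelled. No label ties an array to an animal, so how far the spread behind each p-value is technical is not known. The sex-linked readings given below differ between the 2 heterozygous arrays, so these arrays were not repeats of 1 pool.

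The dermal papilla is a cluster of mesenchymal cells enclosed by the base of the follicle. It signals to the epithelial matrix above it, which forms the hair shaft, and its contact with the epithelium is needed for the follicle to start another growth phase. Hr mutant follicles are known for losing this contact when the first hair cycle ends. Corin is a membrane serine protease that activates atrial natriuretic peptide and acts on coat colour through the agouti pathway. Lepr is the leptin receptor, which signals through JAK2 and STAT3. Vcan encodes versican, a large proteoglycan of the growing papilla, Alpl encodes tissue-nonspecific alkaline phosphatase, long used to stain the papilla, and Prom1 encodes the surface glycoprotein CD133.

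2 of the samples have labels that the data or other labels do not bear out. Homozygous replicate 3 has the title of a homozygous sample, the strain field of a heterozygous one and the source name of the other homozygous sample. It was kept with the homozygous group by its title. Heterozygous replicate 4, labelled male like the others, read 6996.1 on the brightest probe set of Xist, the RNA of the inactive X chromosome, against 68.8 to 85.6 on the other arrays. It read 11.2 on the Y-linked gene Eif2s3y, against 342.7 to 515.7. The 2 heterozygous arrays were the least alike of any pair, with a correlation of 0.884 over the probe sets tested. Pairs of 1 heterozygous and 1 homozygous array gave 0.906 to 0.931, and the homozygous pair gave 0.929. The 18 hybridization spike-in probe sets were lower on both homozygous arrays in 18 of 18 cases, by a mean log2 difference of -1.05. The part of the spike-ins and of sex in the results below was not tested, and each member is given with and without these arrays.

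Corin and 1 probe set of Lepr were higher on both homozygous arrays than on both heterozygous arrays, and the brightest probe set of Vcan was lower on both. Alpl and Prom1 overlapped between the groups. None of the 5 passed limma's test over all 13575 probe sets tested. No probe set of the whole table passed at an adjusted p under 0.05 (0%), and 2.3% had an unadjusted p under 0.05, among them 1 of the 5, Lepr, which entered the test through its homozygous readings. In 3 of the 5 the groups did not overlap, beside 26.9% of all probe sets tested (13.6% higher and 13.3% lower on the homozygous arrays). With no difference between the groups, a share of 0.05 would be expected to have such a p. A share of 0.333 would be expected not to overlap, and both shares over all probe sets were below these. The 5 genes were chosen with such values known, so nothing is read from the 3 of 5. In a bulk sample, fewer papilla cells and less RNA per cell cannot be told apart.

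The start sites of the 3 genes whose groups did not overlap are shown first, to set the genes beside their regulatory sequence. Each window runs from 250 bases before to 50 bases after a RefSeq transcription start, on build GRCm38.p6, 5′ to 3′ on the gene's strand. Capitals mark a match to 1 of 4 motifs, searched on both strands. These are the nuclear receptor half-site AGGTCA (in 16.3% of all 32851 windows of this length), the TCF/LEF cores CTTTGA (16%) and CTTTGT (18.7%), and the TATA box TATAAA (13.6%). On the other strand, CTTTGT reads as ACAAAG, which is also the core that Sox factors bind. Nuclear receptors are the partners of the Hr protein, and TCF/LEF factors carry the Wnt signal in the papilla.
Corin, chr5:72504491-72504790, minus strand: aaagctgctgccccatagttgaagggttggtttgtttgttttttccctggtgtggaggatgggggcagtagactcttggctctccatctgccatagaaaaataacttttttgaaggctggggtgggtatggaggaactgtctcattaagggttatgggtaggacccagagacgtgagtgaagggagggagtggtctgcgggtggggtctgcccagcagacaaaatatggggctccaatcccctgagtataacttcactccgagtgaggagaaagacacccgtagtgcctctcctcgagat
Lepr, chr4:101717157-101717456, plus strand: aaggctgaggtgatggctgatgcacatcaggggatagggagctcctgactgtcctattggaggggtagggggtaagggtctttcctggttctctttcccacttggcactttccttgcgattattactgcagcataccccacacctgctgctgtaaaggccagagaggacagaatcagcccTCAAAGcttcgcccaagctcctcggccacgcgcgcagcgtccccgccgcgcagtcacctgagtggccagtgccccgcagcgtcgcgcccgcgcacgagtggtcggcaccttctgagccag
Vcan, chr13:89742463-89742762, minus strand: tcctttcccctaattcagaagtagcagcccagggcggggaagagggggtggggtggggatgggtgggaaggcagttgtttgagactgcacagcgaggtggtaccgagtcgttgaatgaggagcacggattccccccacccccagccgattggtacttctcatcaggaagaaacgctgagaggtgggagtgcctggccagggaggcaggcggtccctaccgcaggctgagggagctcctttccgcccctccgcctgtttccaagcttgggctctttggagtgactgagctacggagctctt

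The Lepr window holds 1 match, the TCF/LEF core CTTTGA on the minus strand, and the Corin and Vcan windows hold none of the 4 motifs. The other Lepr start listed has none either. The windows of Corin, Lepr and Vcan have a G and C content of 51.7%, 61.3% and 61%, beside a median of 52.7% over all windows. Of the windows not shown, 1 of the 2 of Alpl holds 4 matches and the other 1, and the 2 of Prom1 hold 0 and 1. A match is a description of the letters only.

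Corin (probe set 1419017_at) read 57.3 in heterozygous replicate 3, 170.5 in heterozygous replicate 4, 319.6 in homozygous replicate 2 and 192.7 in homozygous replicate 3. Below, the arrays are given in this order. Heterozygous replicate 3 stood lowest and homozygous replicate 2 highest, while heterozygous replicate 4 and homozygous replicate 3 lay close together. On the scale of log2(intensity + 32), on which all differences below are given as homozygous minus heterozygous, the difference was 1.06 ± 0.48 (SE, n = 2 per group), or 2.09-fold. The 95% interval ran from -0.0043 to 2.13, and limma's unadjusted p was 0.0508 (adjusted p = 1). The gap between the heterozygous arrays, 1.18, was larger than this difference. Each homozygous array exceeded each heterozygous array, by 0.15 to 1.98. Without heterozygous replicate 3 the difference was 0.47, and without heterozygous replicate 4 it was 1.65. Without homozygous replicate 3 it was 1.39, and 0.74 without homozygous replicate 2.

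Lepr was read by 3 probe sets that did not follow one another. The brightest, 1425875_a_at, read 8.1 and 12.6 on the heterozygous arrays and 80.7 and 48.6 on the homozygous arrays. The heterozygous readings lay near the bottom of their arrays (percentiles 19 and 23.5), and the homozygous readings lay near the middle (percentiles 64 and 47.7). The difference was 1.17 ± 0.40 (SE, n = 2 per group; 2.25-fold; 95% interval 0.30 to 2.05), with an unadjusted limma p of 0.0136 and an adjusted p of 1. It ranked 59 of 13575 by unadjusted p. On this log2 scale Lepr was the 1 member whose groups stood apart by more than both gaps between replicates, which were 0.15 and 0.48. Each homozygous array exceeded each heterozygous array by 0.85 to 1.49. Homozygous replicate 2 by itself exceeded the heterozygous arrays by 1.49 and 1.34. Without heterozygous replicate 4 the difference was 1.25.

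This probe set entered the test through the homozygous arrays. The brightness filter lay at a mean of 5.96 on the log2 scale, the heterozygous mean was 5.40 and the homozygous mean 6.58. Without either homozygous replicate it fell below the filter and gave no value. The pseudocount of 32 exceeds both heterozygous readings, so the difference depends on it, with 0.78 at a pseudocount of 64. The pseudocount also narrows the gap between the heterozygous arrays. For these reasons nothing is read from the rank of this probe set, or from its groups standing apart by more than the gaps between replicates. The 2.25-fold is a ratio of intensities with 32 added. Without it the ratio of the group mean intensities was 6.25, with heterozygous readings too dim to fix its size.

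The other 2 probe sets of Lepr did not pass the filter. Probe set 1425644_at read 1 and 49.1 on the heterozygous arrays and 2.8 and 3.5 on the homozygous arrays. Heterozygous replicate 4 alone was near the middle of its array (percentile 50.1, against 0.617 to 6.34 on the others). Probe set 1425873_a_at read 5.4 and 4.9 against 18.6 and 3.7, where homozygous replicate 2 alone stood higher. With all probe sets tested, their differences were -0.56 ± 0.39 and 0.19 ± 0.21. The sign for Lepr thus differs between its probe sets. Which transcript form of the receptor each one reads is not given in the sources used here.

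Vcan was also read by 3 probe sets. The brightest, 1427256_at, read 185.5 and 200.6 on the heterozygous arrays and 55.9 and 137.2 on the homozygous arrays. The heterozygous pair lay close together, and homozygous replicate 2 was well below homozygous replicate 3. The difference was -0.88 ± 0.42 (SE, n = 2 per group; 1.84-fold lower; 95% interval -1.82 to 0.054), with an unadjusted limma p of 0.0622 and an adjusted p of 1. Its size was set largely by homozygous replicate 2, without which the difference was -0.41. Without homozygous replicate 3 it was -1.36, and without heterozygous replicate 4 it was -0.84.

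Of the dimmer Vcan probe sets, 1421694_a_at read 31.2 and 56.2 against 7.5 and 30.3. The order of the arrays was the same as on the brightest one, although heterozygous replicate 3 and homozygous replicate 3 were all but level. Probe set 1427257_at read 9.4 and 10.3 against 15.3 and 5.3 and overlapped. With all probe sets tested, the differences were -0.59 ± 0.39 and 0.0054 ± 0.20. Taking the mean of the 3 probe sets gave -0.49 for Vcan.

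Versican is made by dermal fibroblasts as well as by the papilla, and most fibroblast markers had differences of the same sign. Of 18 dermal fibroblast genes tested 16 had a difference below 0, with a median of -0.52, and in 8 both homozygous arrays were below both heterozygous arrays, beside 13.4% of named genes. The median was -0.96 without heterozygous replicate 4 and -0.21 by the strain field. Their summed intensity was 16630 and 12500 on the heterozygous arrays and 8386 and 8455 on the homozygous arrays, and no marker was at 0. Dpt, encoding dermatopontin, read 440.2 and 755 against 148.9 and 148.2, and Postn, encoding periostin, read 1003 and 1445.8 against 696.8 and 312.9. The part of fibroblast RNA in the Vcan difference was not tested.

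Alpl (1423611_at) read 52.6 and 45 on the heterozygous arrays and 36.8 and 51.4 on the homozygous arrays. All 4 readings lay near the median of their arrays and the groups overlapped. The difference was -0.092 ± 0.37 (SE, n = 2 per group), and its 95% interval, -0.91 to 0.72, leaves room for a change of either sign. Prom1 (1419700_a_at), at percentiles 80.6 to 90.4 of the arrays, read 292.6 and 520.3 against 400 and 219.5. Its highest array was heterozygous replicate 4 and its lowest homozygous replicate 3. The difference was -0.36 ± 0.50 (95% interval -1.46 to 0.73), and its sign turned without heterozygous replicate 4 (0.022), without homozygous replicate 3 (0.029) and with the groups taken from the strain field (0.28). The difference for Alpl was -0.16 without heterozygous replicate 4 and -0.23 without homozygous replicate 3, and its sign turned without homozygous replicate 2 (0.047). The unadjusted limma p was 0.808 for Alpl and 0.481 for Prom1.

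**Figure D1:**
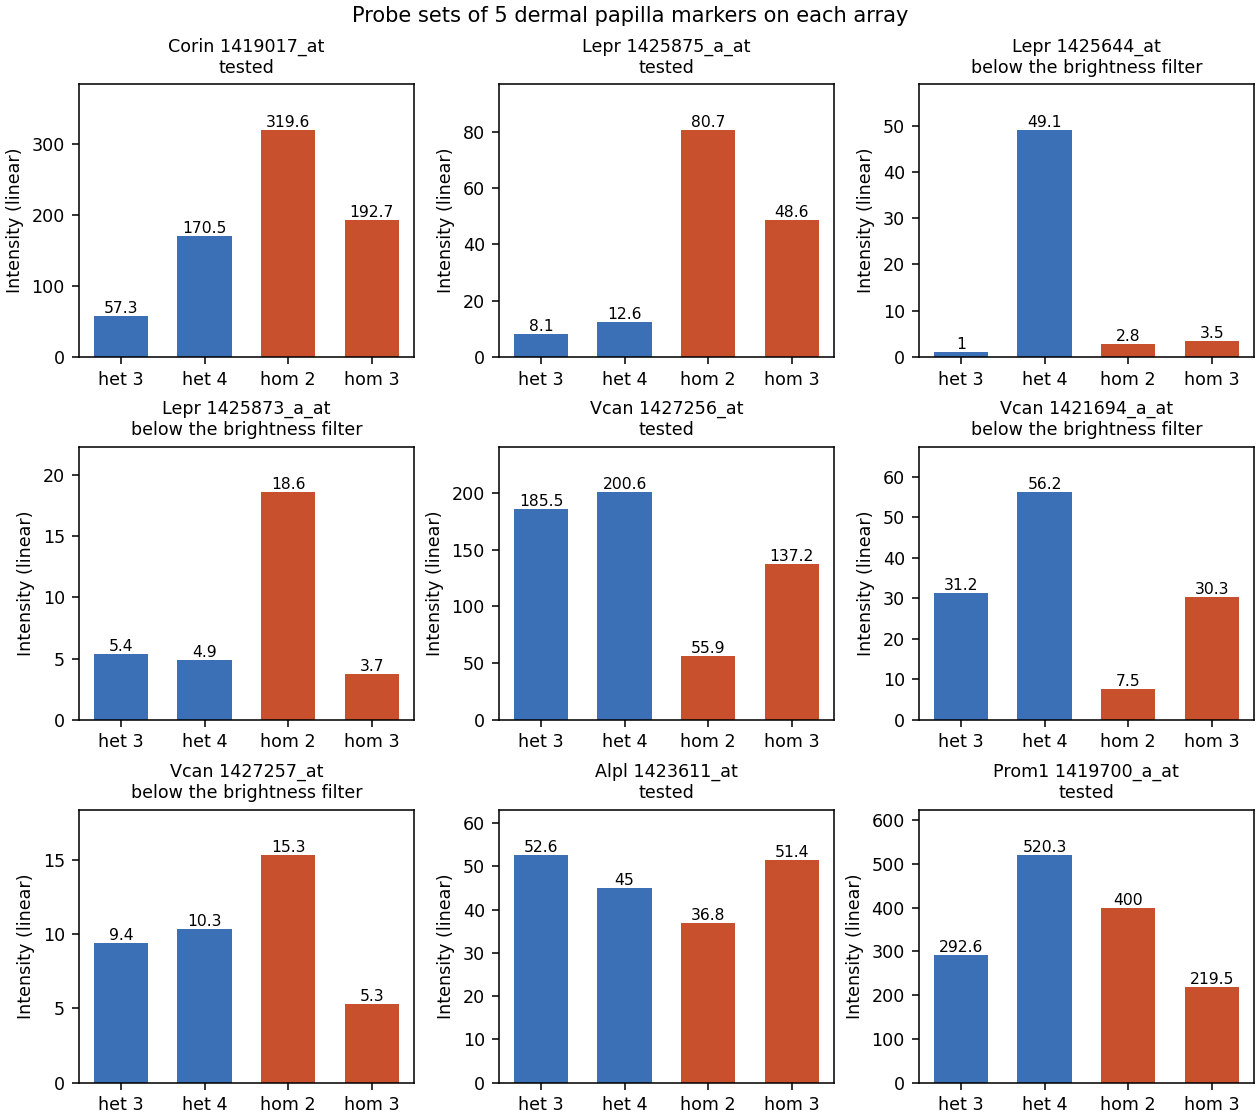
Each panel plots the deposited intensity (linear scale, bars from 0) of 1 probe set on the 4 arrays, heterozygous replicates 3 and 4 in blue and homozygous replicates 2 and 3 in red. Corin and Lepr 1425875_a_at are higher on both red bars and Vcan 1427256_at is lower on both, while the other probe sets of Lepr do not share the pattern of the first.

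With the genotypes taken from the strain field, homozygous replicate 2 was the only homozygous sample and was assumed to vary like the others. The differences were then 1.14 for Corin, 1.10 for Lepr, -1.22 for Vcan, -0.25 for Alpl and 0.28 for Prom1, and none passed limma's test. The exact two-sided permutation test over arrays gave its smallest possible p, 0.333, for Corin, Lepr and Vcan, since 2 against 2 allows 6 splits. It gave 0.667 for Alpl and Prom1.

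**Figure D2:**
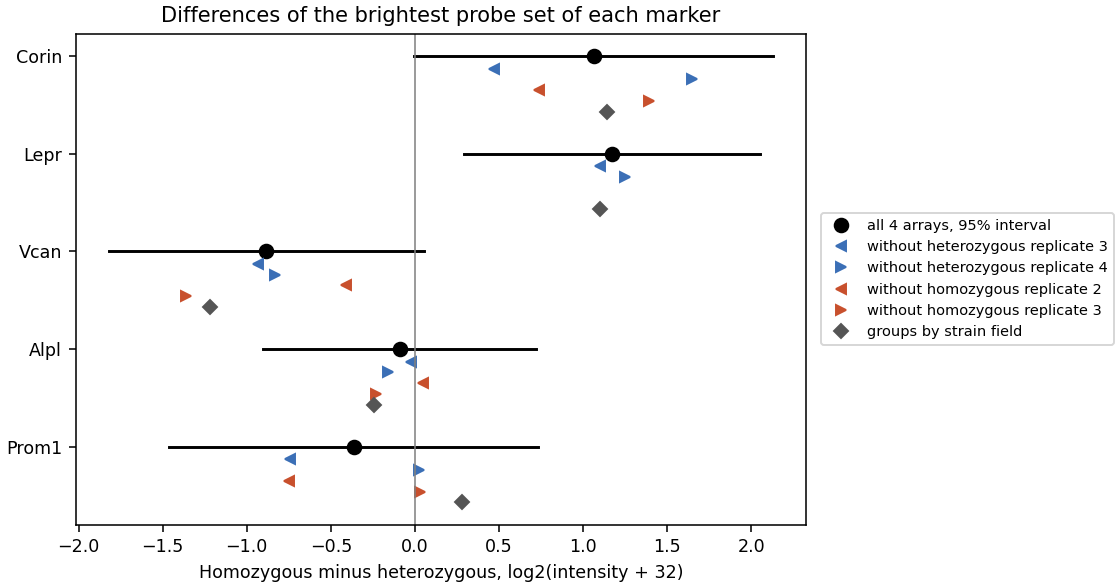
The x axis is the homozygous minus heterozygous difference in log2(intensity + 32) for the brightest probe set of each marker. Black points and lines are the value and 95% interval over all 4 arrays, triangles leave out 1 array each and diamonds group the arrays by the strain field. Corin and Vcan keep their sign in all of these, Lepr in the 3 that gave a value, and Prom1 and Alpl cross 0.

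The genes whose readings were most like each member's over the 4 arrays were found by the root mean square distance between mean-centred log2 values, over 8555 other named genes. For Corin they were Ccl8 (distance 0.057) and Akr1c18 (0.091), and for Lepr S100a3 (0.074) and Spcs1 (0.12). For Vcan they were Dusp11 (0.038) and Mrgprf (0.055), for Alpl Cldn10 (0.0094) and Atp5k (0.017), and for Prom1 Bloc1s6 (0.026) and Kpna4 (0.031). S100a3 read 1074.3 and 1161.7 on the heterozygous arrays and 3423.5 and 2298.7 on the homozygous arrays, the same order of arrays as Lepr. It was chosen for its likeness over these 4 arrays, so nothing is read from the shared order.

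Other genes of the papilla that were bright enough to be tested had differences of both signs, most of them above 0. Of 28 listed, 27 were on the array and 14 were bright enough to be tested. Among the other 13 were the transcription factor genes Sox2, Sox18, Tbx18, Alx4 and Hey1, which mark the papilla, and the 13 read between 0.5 and 65.8. Of the 13, 9 lay below the array median on all 4 arrays. Sox2 read 0.5 and 7.4 against 9.3 and 17.1, and Bmp6 and Inhba were also higher on both homozygous arrays. Tbx18, Alx4 and Hey1 were lower on both. Tbx18 read 12 and 9.9 against 3.9 and 2.4, and Alx4 21.8 and 38.4 against 18.5 and 3.6. Hey1 read 65.8 and 32.1 against 12.6 and 5.7. The rest overlapped between the groups. Of all probe sets tested 26.9% did not overlap, and no such share was taken for those below the filter. At such low intensities nothing is read from these directions. No gene of the list was at exactly 0. The summed intensity of the 27 was 2967 and 3469 on the heterozygous arrays and 3961 and 4094 on the homozygous arrays. Crym and Ptch1 hold much of each sum, and 14 or 15 of the 27 genes lay below the array median on each array.

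Of the 14 tested papilla genes 10 lay above 0, beside 4387 of 8556 named genes, with a median difference of 0.24 against 0.011. In 2 both homozygous arrays were above both heterozygous arrays (background 13.8% of named genes) and in 1 below (13.4%), and 0 passed limma's test. The median stayed above 0 with any 1 array left out, at 0.18 without heterozygous replicate 3, 0.014 without heterozygous replicate 4, 0.20 without homozygous replicate 2 and 0.015 without homozygous replicate 3. By the strain field the median was -0.36, and with no brightness filter it was 0.087. Wif1, a secreted Wnt inhibitor, read 57.2 and 54.7 against 57.5 and 196 (0.70 ± 0.46), where homozygous replicate 3 alone stood out. Crym, a thyroid hormone binding protein, read 763.6 and 968.3 against 1142.7 and 1424.5 (0.55 ± 0.45). Igf1, a growth factor of the papilla, read 221 and 209.3 against 116.8 and 149.2 (-0.59 ± 0.39), and another probe set of it differed by -0.18 with overlapping groups.

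Genes that act with Corin in natriuretic peptide and agouti signalling had differences of both signs. Of 12 on the array 7 were tested, 3 above and 4 below 0, with a median difference of -0.011, and 0 passed. Pcsk6, a proprotein convertase that cleaves pro-corin, read 13.8 and 12.4 against 47.7 and 66.3 (0.97 ± 0.39; limma adjusted p = 1). Both heterozygous readings were under the pseudocount, and it passed the brightness filter of 5.96 through the homozygous arrays, with a heterozygous mean of 5.50 and a homozygous mean of 6.47. Npr3, the clearance receptor of natriuretic peptides, read 118.6 and 99.5 against 75.8 and 38.8 (-0.69 ± 0.38). Nppb, a natriuretic peptide gene, differed by 0.20 ± 0.52. The agouti gene, the melanocortin receptor gene Mc1r and the natriuretic peptide receptor genes Npr1 and Npr2 were below the filter.

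Of the 14 genes of leptin signalling 13 were tested, 6 above and 7 below 0, with a median of -0.034, and 0 passed. The kinase gene Jak2 read 443.4 and 610.2 against 482.4 and 288.9 (-0.44 ± 0.48), and its other probe set differed by 0.11. The transcription factor genes Stat5a and Stat5b differed by -0.52 ± 0.48 and -0.52 ± 0.38. In Stat5b both homozygous arrays were lower, and in Stat5a heterozygous replicate 4 alone stood apart, at 165.1 against 36.6 to 54. Leprot, which lies at the Lepr locus, differed by 0.39 ± 0.47.

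Of 16 genes of hyaluronan and versican matrix on the array 11 were tested, 6 above and 5 below 0, with a median of 0.0042, and 0 passed. Adamts5, a protease that cleaves versican, read 144.4 and 86.5 against 63.6 and 63.5 (-0.60 ± 0.37), and its other probe set was lower on both homozygous arrays too (-0.32). The hyaluronan receptor gene Cd44 read 751.9 and 165.8 against 309.2 and 876.8 (0.50 ± 0.69), a spread within each group larger than the difference. Fbln2, a fibulin that binds versican, differed by -0.44 ± 0.39.

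The 7 tested genes of phosphate handling and mineralisation had a median of 0.064, 4 above and 3 below 0. Bmp2 read 316.1 and 156.7 against 318.9 and 372.1 (0.56 ± 0.47), the alkaline phosphatase gene Alppl2 differed by -0.36 ± 0.44 and the pyrophosphate transporter gene Ank by -0.32 ± 0.50. The 7 genes around Prom1 had a median of -0.073, which was -0.78 without heterozygous replicate 3 and 0.75 without heterozygous replicate 4. Prom2, the paralogue of Prom1, read 7.6 and 65.6 against 66.1 and 101.5 (0.88 ± 0.47), so the groups met at 65.6 and 66.1. Ttyh1 read 25.7 and 181.7 against 210.8 and 177.6 (1.02 ± 0.55), with heterozygous replicate 3 low. The surface antigen gene Cd34 read 54.4 and 70.2 against 8.6 and 55.5 (-0.66 ± 0.44). In neither list did a gene pass limma's test. The lists of papilla genes and of the members' partners had 14, 7, 13, 11, 7 and 7 genes tested. Of these genes 1 had an unadjusted limma p under 0.05, beside 2.3% of all probe sets tested. It was Pcsk6, which entered the test through its homozygous readings, so nothing is read from it.

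**Figure D3:**
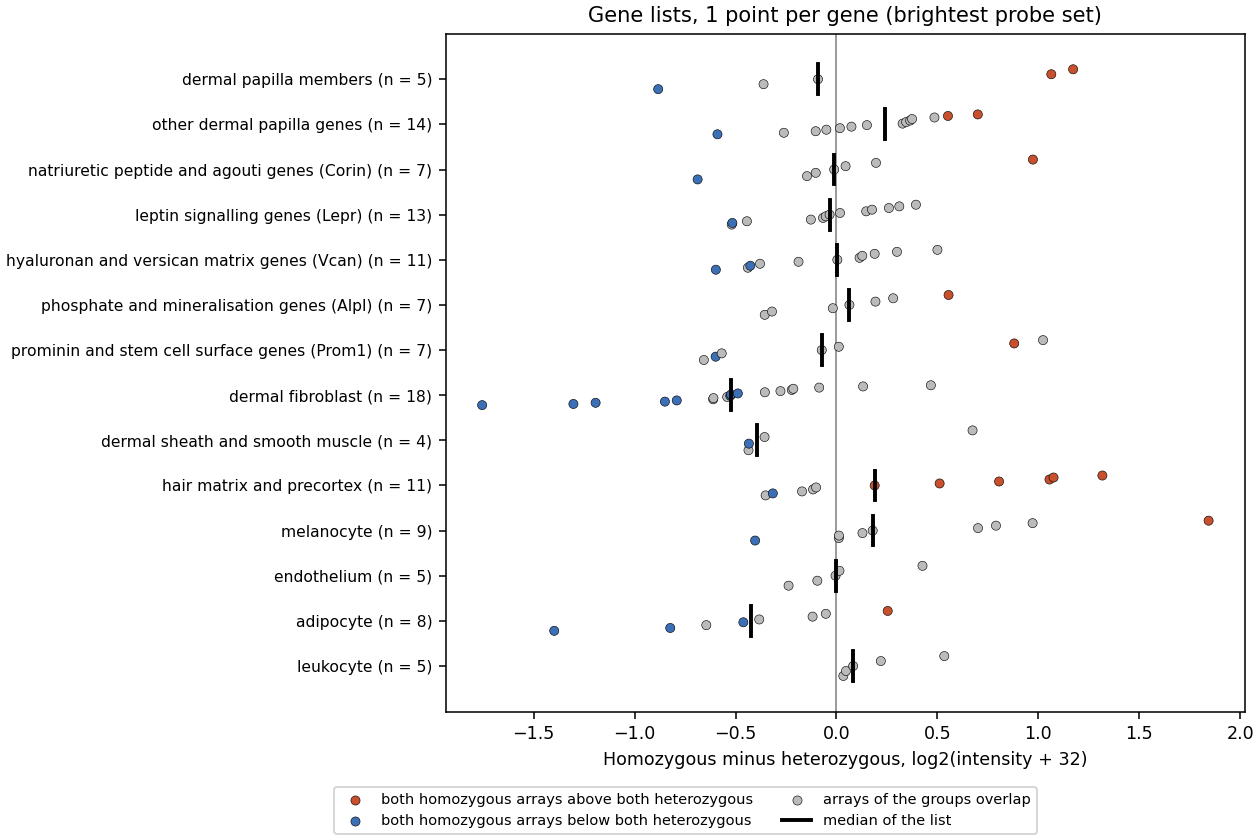
Each point is 1 gene at its homozygous minus heterozygous difference in log2(intensity + 32), by list, with the list median as a black bar and n the genes tested. Red and blue points are genes whose arrays do not overlap between the groups. The papilla markers spread to both sides of 0, from -0.88 for Vcan to 1.17 for Lepr, and the 18 fibroblast genes lie mostly below 0.

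Markers of the other cell types that a captured follicle can bring along were set beside the papilla. Hair matrix and precortex genes had a median of 0.19 over 11 genes, of which 6 were higher on both homozygous arrays, beside 13.8% of named genes. The median was -0.13 without homozygous replicate 3, 0.44 without heterozygous replicate 4, 0.40 without homozygous replicate 2 and 0.044 with no filter. Their summed intensity was 11290 and 11700 against 13430 and 17010. Dermal sheath and smooth muscle genes had a median of -0.40 over 4 genes, with sums of 2428 and 2196 against 1666 and 1553. That median was -0.020 without heterozygous replicate 4, 0.0062 without homozygous replicate 3, -0.72 without homozygous replicate 2 and 0.19 by the strain field. Medians were 0.18 for 9 melanocyte genes (sums 1887 and 4557 against 3836 and 7339), -0.0048 for 5 endothelial genes (453.2 and 489.5 against 425.2 and 502), -0.42 for 8 adipocyte genes (13640 and 12440 against 10350 and 6076) and 0.082 for 5 leukocyte genes (934.6 and 563.5 against 1366 and 637.9). With 1 array left out in turn, the medians ran from -0.25 to 0.91 for melanocyte, -0.19 to 0.053 for endothelial, -0.59 to -0.26 for adipocyte and -0.14 to 0.42 for leukocyte genes. By the strain field they were -0.165 for melanocyte, -0.234 for endothelial, -0.063 for adipocyte and 0.527 for leukocyte genes. That of hair matrix and precortex genes was then 0.037. Endothelial cells also carry alkaline phosphatase, and 5 of 10 endothelial markers were too dim to be tested. The part of these cell types in the Corin, Lepr and Vcan differences was not tested.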

How the data were processed

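The authors deposited linear intensities of probe sets, 1 column for each of 4 arrays. From the values, the authors had scaled each array to a common level (trimmed mean 165 on all 4). Software: not given in the sources used here. Per the labels' protocols, sections were 8 micrometres thick. Median intensities were 43.5 to 52.6. The number of arrays limits the precision.

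Intensities were taken as log2(intensity + 32), which understates differences of dim probe sets. Of 22690 probe sets 64 controls were left out, and the 60% with the highest mean were tested, 13575 in all. The platform annotation gave 20380 probe sets 1 symbol, 691 several and 1555 none. A gene is represented by its brightest probe set. The test was limma's (version 3.58.1, R 4.3.3), by lmFit and eBayes with a trend on intensity, two-sided, with 2 residual and 8.63 prior degrees of freedom, Benjamini-Hochberg adjustment over all probe sets tested and a threshold of 0.05. Checked on simulated data of this comparison (13575 probe sets, 200 changed, 20 simulations), the test recovered 1.7% of 2-fold, 31.6% of 4-fold and 84.7% of 8-fold changes. These changes were added on the scale of log2(intensity + 32). The simulated spread was normal and independent between arrays, so the rates may overstate recovery in these data. Promoter windows are RefSeq's.

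The 5 members and the gene lists were chosen with earlier results of these data known. All members and their probe sets are named. From each list of genes that act with a member or in the papilla, up to 3 tested genes with the largest differences are named, and 2 genes are named as most like each member. Sox2 and the other genes below the filter, Leprot, Xist, Eif2s3y, S100a3's values and the fibroblast genes beside Vcan were named after their values were seen. Alternatives were other pseudocounts, filters, scalings, eBayes settings, groups by strain field, probe set means and leaving out each array.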

Additional observations from a re-analysis of the deposited data

How the results depend on the processing

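Under 13 alternatives 0 members passed limma's test. Over these and a 14th, the probe set means, 60 of 64 member differences kept their sign. The 4 that turned were Prom1 by the strain field (0.279), without heterozygous replicate 4 (0.0221) and without homozygous replicate 3 (0.029), and Alpl without homozygous replicate 2 (0.0473). Leaving out 1 array at a time gave 0.473 to 1.65 for Corin, 1.10 to 1.25 for Lepr, -1.36 to -0.411 for Vcan, -0.23 to 0.0473 for Alpl and -0.751 to 0.029 for Prom1. The adjusted p over all alternatives ran from 0.377 to 1 for Corin, 0.525 to 1 for Lepr and 0.627 to 1 for Vcan. Lepr gave no value under 5 alternatives (a pseudocount of 16, 40% kept, without either homozygous replicate, probe set means) and Alpl under 1 (40% kept), since they fell below the filter. Over all probe sets 0 were called in 12 of 13 alternatives. Leaving out 1 array gave 0 to 17, the 17 without heterozygous replicate 3, with 0 members among them, and the cause was not tested. List medians moved by more than the spread between replicates in 32 of 196 cases. No paired analysis was possible because the groups share only 1 replicate number. The median 95% interval reached 0.93 (log2) to either side, or 1.9-fold. That width belongs to the unadjusted p of each probe set, so it is not the limit of the adjusted test. On the simulated data the test recovered 1.7% of 2-fold and 31.6% of 4-fold changes. Changes of these sizes or smaller would thus mostly be missed.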
